A study of Danio rerio with 16 samples.

Results

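The miR-19 family in zebrafish is a set of microRNAs (miRNAs, short RNAs that lower the abundance and translation of the messenger RNAs they pair with) named dre-miR-19a to dre-miR-19d. Its members were taken as every non-control spot on the array whose miRNA name is dre-miR-19a, dre-miR-19b, dre-miR-19c or dre-miR-19d, with or without a suffix for the arm of the precursor. By this rule 6 of the 248 miRNAs on the array belonged to the family, namely dre-miR-19a-3p, dre-miR-19a-5p, dre-miR-19b-3p, dre-miR-19b-5p, dre-miR-19c and dre-miR-19d, each measured by 60 spots per array that 2 different probes shared.

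Liver RNA of adult female zebrafish was measured on 16 one-colour miRNA arrays, 4 for each of 4 groups, and every sample was a pool of 2 livers. The Fed group was fed daily in clean water and acted as the control, and the Fasted group received no food for 7 days. The Fed/FLX and Fasted/FLX groups were kept in the same 2 feeding states in water with fluoxetine at 540 ng/L, a selective serotonin reuptake inhibitor used as an antidepressant, for the same 7 days. No strain, genotype or exact age was given, and the fish were bought from an aquarium supplier. Each group was held in 1 tank, so that group and tank cannot be told apart, and p-values measure the spread between pools from 1 tank. The arrays of both FLX groups occupied columns 2 and 4 of the 2 slides and the others columns 1 and 3, so that FLX and slide column cannot be told apart either.

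Members of the miR-19 family share a seed, the stretch of bases that chooses the target messages, and in mammals they repress the pro-apoptotic factor BIM. They are made from long primary transcripts together with miRNAs of other seed families, the best known of which is the miR-17-92 transcript that promotes cell proliferation. In mammalian liver this transcript is known for high levels in regenerating tissue and in hepatocellular carcinoma. Because miR-19 members are alike in sequence, RNA of one may bind a probe of another, which was not tested here.

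The arrays detected 64 to 92 miRNAs each, where a miRNA counted as detected if at least 50% of its spots were well above background, and 49 miRNAs were detected on all 16 arrays. The median spot signal over those 49 miRNAs ran from 96.8 to 239 scanner units, and it was lowest on Fed/FLX replicates 4 and 1 (96.8 and 99.8) and Fed replicate 2 (100.1). Fed/FLX thus held 2 of the 3 arrays of lowest signal. Each scan was assigned to the sample it is filed under. A second deposited table gives 14 of the 16 scans to another sample, 12 of them to another group, and which assignment is right could not be settled here. By the headings of that table dre-miR-19a-3p would differ between Fed/FLX and Fed by 0.37 (adjusted p = 0.400), and dre-miR-19c is not in it, so every difference between groups below rests on the assignment of the scans. That table also holds another measure than the one used below, a total signal per miRNA less 1 constant per column. The median of its 166 miRNAs in this comparison was -0.41. Liver markers were present, since the hepatocyte miRNA dre-miR-122 was detected on all 16 arrays. No marker on the list for muscle or on that for oocyte and early embryo was detected on any. Of the pancreas markers, dre-miR-216a was detected on 15 arrays, dre-miR-216b on 13, dre-miR-217 on 11 and dre-miR-375 on 0. The red blood cell miRNA dre-miR-451 was detected on all 16. Whether other tissue was taken with the livers was not tested.

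The family split into 3 pairs by how well it was measured. Dre-miR-19a-3p and dre-miR-19b-3p were detected on all 16 arrays. Dre-miR-19c was detected on 5 arrays and dre-miR-19d on 7, with a further mark of detection by the scanner software on 14 and 15 arrays in all. The opposite arms, dre-miR-19a-5p and dre-miR-19b-5p, had 0% of spots well above background on every array and no detection mark on any. Those 2 features had mean probe signals below 0 after background subtraction on all 16 arrays, and they are not described further because their values hold no measurable level. The 5p strands of miR-19 precursors are usually the discarded strand.

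Dre-miR-19a-3p was lower in Fed/FLX than in Fed, and it is the member that the study itself singled out from these arrays, so that its direction here is not independent evidence. Its abundance is given as the RMA value, a log2 signal after background correction, quantile normalization over the 16 arrays and a robust summary over its spots. In Fed the 4 arrays read 6.00, 6.38, 6.10 and 6.77, and in Fed/FLX they read 4.92, 5.67, 5.84 and 5.09. On this scale every Fed/FLX array lay below every Fed array, and the lowest were the 2 Fed/FLX arrays of low signal. The Fasted arrays read 5.94, 6.39, 5.72 and 6.29 and the Fasted/FLX arrays 6.66, 5.96, 6.37 and 5.80. Both fasting groups overlapped with Fed and with each other. Before normalization the Fed and Fed/FLX arrays overlapped as well, with 58.6 to 99.8 scanner units in Fed and 22.2 to 67.1 in Fed/FLX on the brighter probe.

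**Figure D1:**
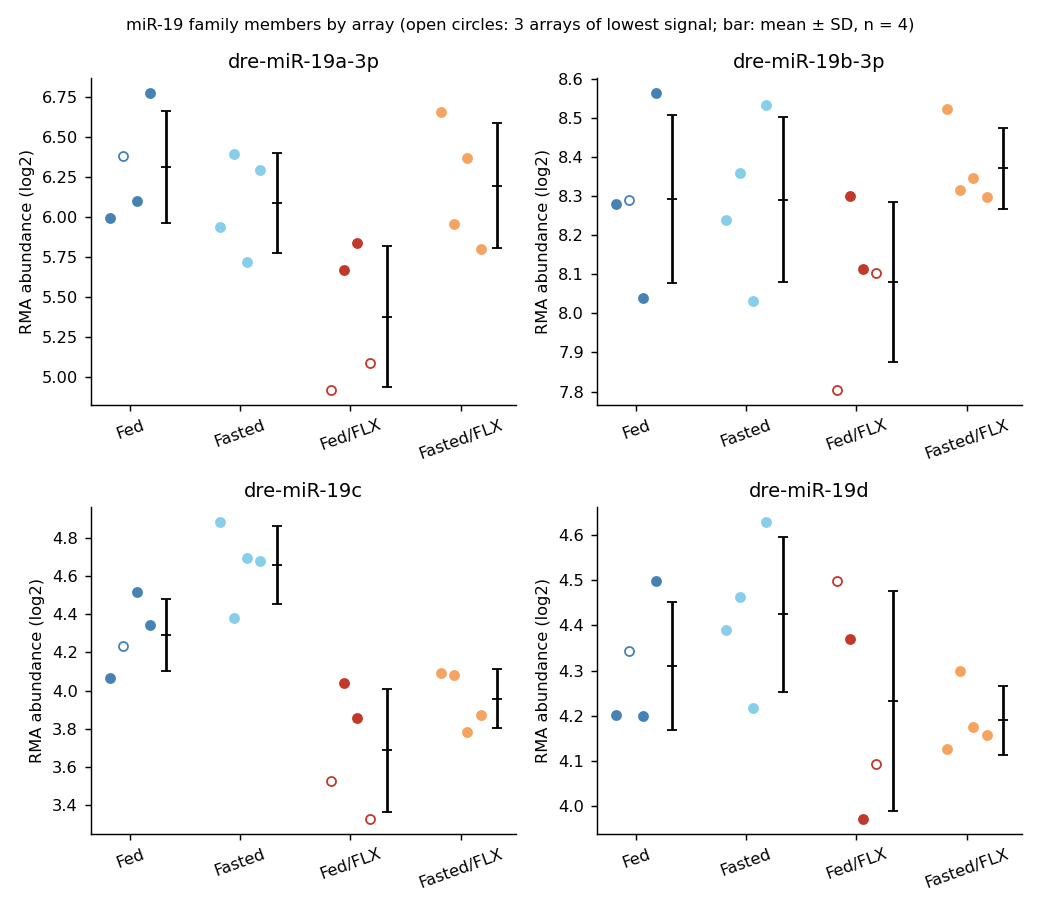
RMA abundance (log2) of the 4 measurable members on each of the 16 arrays by group, with the mean ± SD (n = 4) beside the points and open circles for the 3 arrays of lowest signal. The 4 Fed/FLX values of dre-miR-19a-3p, from 4.92 to 5.84, lie below the lowest Fed value of 6.00, and dre-miR-19c is lower in both FLX groups than in the group of the same feeding state.

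The group means of dre-miR-19a-3p were 6.31 ± 0.35 in Fed, 6.20 ± 0.39 in Fasted/FLX, 6.09 ± 0.31 in Fasted and 5.38 ± 0.44 in Fed/FLX (SD, n = 4). Fed, Fasted/FLX and Fasted stood within 1 SD of each other, and Fed/FLX stood at the bottom of the order, differing from its neighbour Fasted by -0.71 (SE 0.25, adjusted p = 0.0939). Fed/FLX was lower than Fed by a log2 difference of -0.93 (SE 0.25, adjusted p = 0.0273, limma with Benjamini-Hochberg adjustment over 248 miRNAs). That is 1.91-fold, which on these RMA values is short of the 2-fold minimum of the study's methods. With other processing of the scans the difference ran from -1.09 to -0.49. An exact two-sided permutation test of the same arrays gave p = 0.0286, the smallest value that 4 arrays against 4 allow. In this comparison 12.9% of all miRNAs passed the adjusted threshold, 4.03% with a lower and 8.87% with a higher value in Fed/FLX, and in 12.1% of all miRNAs the arrays of the 2 groups did not overlap.

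Without the 3 arrays of lowest signal, an alternative chosen after seeing the data, dre-miR-19a-3p differed between Fed/FLX and Fed by -0.54 (SE 0.30, adjusted p = 0.337), which ends the call. Leaving out Fed replicate 2, Fed replicate 4, Fed/FLX replicate 1 or Fed/FLX replicate 4 alone also ended it, with adjusted p of 0.0683, 0.0834, 0.0697 and 0.0523. Without quantile normalization the difference was -0.77 (adjusted p = 0.223), and with only the Fed and Fed/FLX arrays in the fit the adjusted p was 0.0839. With an offset of 50 added to the background-corrected signal the difference shrank to -0.49 and still passed (adjusted p = 0.0412). Both probes of dre-miR-19a-3p showed the same sign of difference, -0.91 for the dimmer and -0.95 for the brighter probe. Within slide 1 the difference was -0.89 and within slide 2 it was -0.97, each from 2 arrays against 2.

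In fasted fish dre-miR-19a-3p did not pass between FLX and clean water. Fasted/FLX differed from Fasted by 0.11 (SE 0.25, adjusted p = 0.870), with within-slide values of 0.14 and 0.08. Fasted/FLX was above Fed/FLX by 0.82 (SE 0.25, adjusted p = 0.144), and 3 of its 4 arrays lay above all Fed/FLX arrays. The difference between the FLX responses of fasted and fed fish was 1.04 (SE 0.35) with an adjusted p of 0.229, although its unadjusted limma p was 0.00930, so the response was not shown to differ between the feeding states. The difference between Fasted and Fed was -0.23 (SE 0.25, adjusted p = 0.718).

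Dre-miR-19b-3p, whose gene neighbours that of dre-miR-19a-3p, passed no test. Its Fed arrays read 8.28, 8.29, 8.04 and 8.56 and its Fed/FLX arrays 7.80, 8.30, 8.11 and 8.10. Only Fed/FLX replicate 1 lay below all Fed arrays. The Fasted arrays read 8.24, 8.36, 8.03 and 8.53, and the Fasted/FLX arrays 8.52, 8.32, 8.35 and 8.30. All 4 groups overlapped, and their means ran from 8.08 ± 0.21 in Fed/FLX to 8.37 ± 0.10 in Fasted/FLX (SD, n = 4).

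Fed/FLX differed from Fed in dre-miR-19b-3p by -0.21 (SE 0.13, adjusted p = 0.394), and Fasted/FLX differed from Fasted by 0.08 (SE 0.13, adjusted p = 0.830). The largest of the 6 pairwise differences between groups was that of Fasted/FLX over Fed/FLX, 0.29 (SE 0.13, adjusted p = 0.373). Its 2 probes gave -0.21 and -0.25 for Fed/FLX against Fed.

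Dre-miR-19c was lower in both FLX groups than in the group of the same feeding state without FLX. The Fed arrays read 4.07, 4.23, 4.52 and 4.35, and the Fed/FLX arrays 3.52, 4.04, 3.86 and 3.33. In the fasted state the arrays without FLX read 4.88, 4.38, 4.69 and 4.68 and those with FLX 4.09, 4.08, 3.78 and 3.87. In each feeding state every FLX array lay below every array without FLX. The Fed and Fasted/FLX arrays overlapped, and so did those of Fed/FLX and Fasted/FLX.

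The means of dre-miR-19c were 4.66 ± 0.21 in Fasted, 4.29 ± 0.19 in Fed, 3.96 ± 0.15 in Fasted/FLX and 3.69 ± 0.32 in Fed/FLX (SD, n = 4), and no 2 neighbours in this order passed the test (adjusted p from 0.296 to 0.503). Fed/FLX was below Fed by a log2 difference of -0.60 (SE 0.15, adjusted p = 0.0213) and Fasted/FLX below Fasted by -0.70 (SE 0.15, adjusted p = 0.0172), with an exact permutation p of 0.0286 in each. Among all miRNAs 6.45% passed in Fasted/FLX against Fasted, 3.63% with a lower value, and in 12.9% the groups did not overlap. Fed/FLX was below Fasted by -0.97 (SE 0.15, adjusted p = 0.00117), where 7.26% of all miRNAs passed, 3.23% with a lower value in Fed/FLX. The responses to FLX in the 2 feeding states differed by -0.10 (SE 0.21, adjusted p = 0.890).

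**Figure D2:**
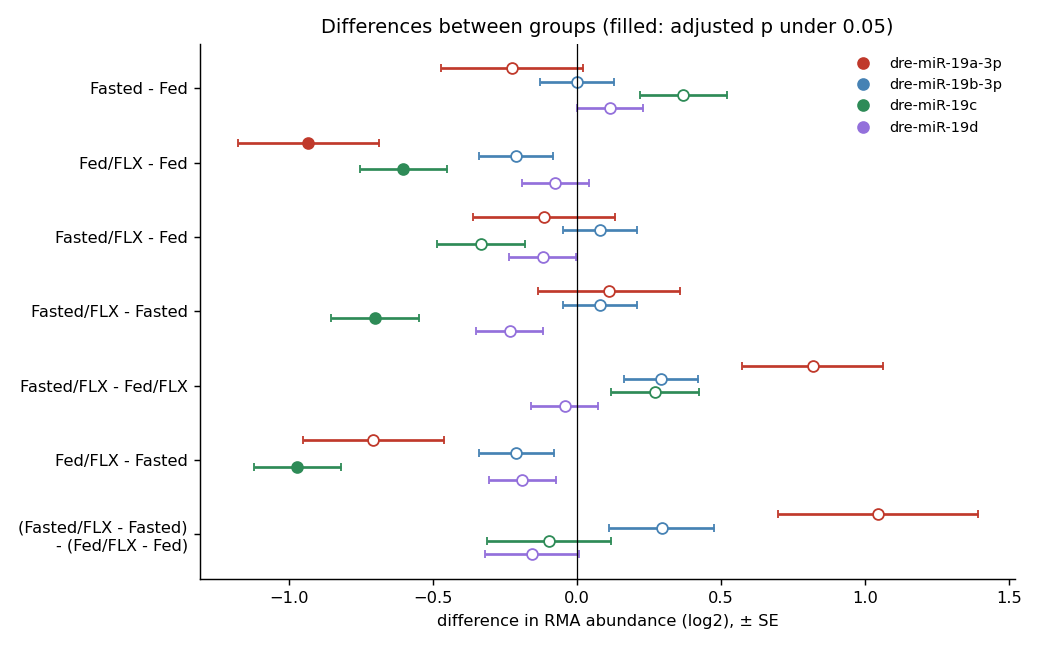
Log2 difference in RMA abundance ± SE for the 4 measurable members in the 6 pairwise comparisons and the interaction, with filled points where the adjusted p was under 0.05. The filled points are dre-miR-19a-3p in Fed/FLX against Fed at -0.93 and dre-miR-19c at -0.60, -0.70 and -0.97.

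The signal of dre-miR-19c was close to background, and no fold is given for it. Its brighter probe had at least 50% of spots well above background on 4 arrays without FLX in each feeding state, on 2 arrays of Fed/FLX and on 3 of Fasted/FLX. On Fed/FLX replicates 1 and 4, the arrays of low signal, this probe had 0% of spots well above background, and so had its dimmer probe. The dimmer probe passed the 50% level on Fasted replicate 1 alone. The mean background-subtracted signal of the brighter probe ran from 14.3 to 23.5 scanner units in Fed, 3.92 to 19.9 in Fed/FLX, 23.8 to 43.7 in Fasted and 13.7 to 26.7 in Fasted/FLX.

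**Figure D3:**
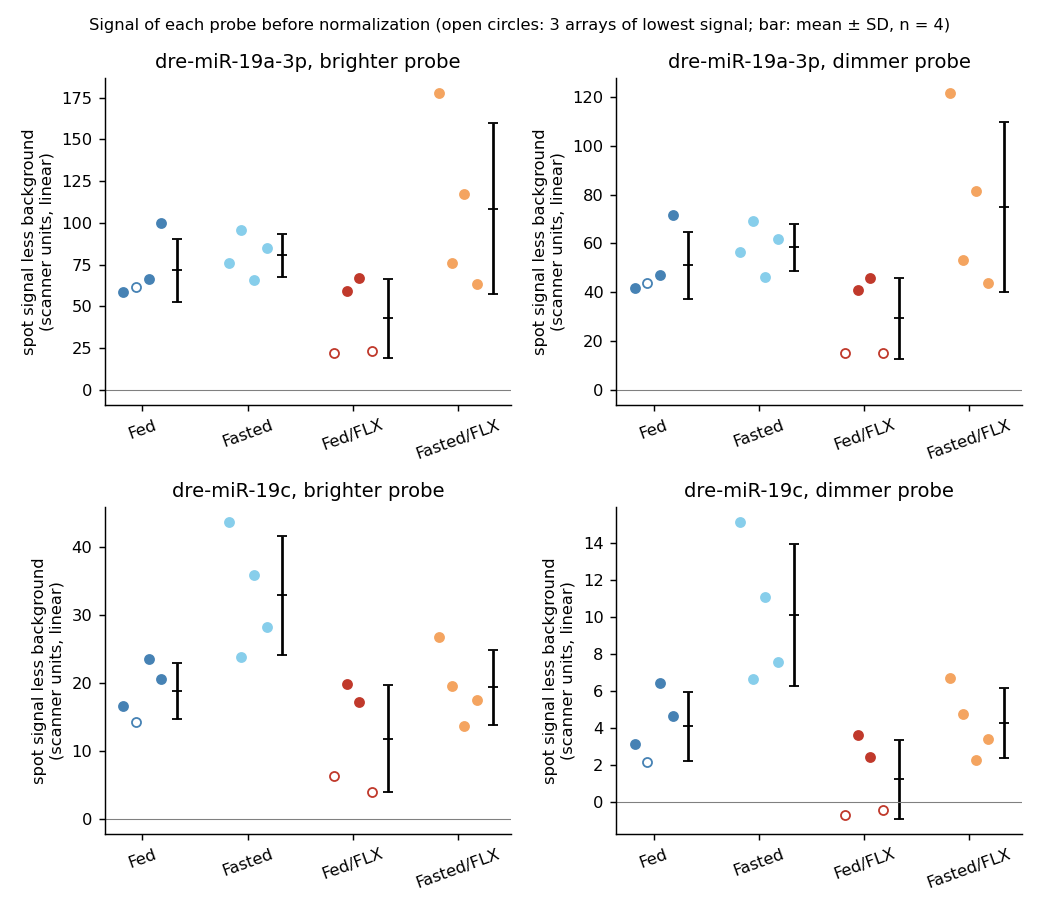
Mean background-subtracted spot signal in scanner units, on a linear scale and before normalization, of the 2 probes of dre-miR-19a-3p and of dre-miR-19c on each array, with the mean ± SD (n = 4) and open circles for the 3 arrays of lowest signal. The dimmer probe of dre-miR-19c stayed at or below 15.1 units, and before normalization the arrays of Fed and Fed/FLX overlapped on both probes of dre-miR-19a-3p and on the brighter probe of dre-miR-19c, where those of Fasted and Fasted/FLX overlapped too.

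On the brighter probe of dre-miR-19c, Fed/FLX minus Fed was -0.67 and Fasted/FLX minus Fasted was -0.76. The dimmer probe was too close to background to bear on either difference. By slide, Fed/FLX minus Fed was -0.37 on slide 1 and -0.84 on slide 2, and Fasted/FLX minus Fasted was -0.55 and -0.86.

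Without the 3 low-signal arrays, Fed/FLX minus Fed fell short of the threshold in dre-miR-19c at -0.37 (SE 0.16, adjusted p = 0.191), and Fed/FLX minus Fasted was -0.74 (adjusted p = 0.0172). None of the 3 is a Fasted or Fasted/FLX array, so leaving them out does not test Fasted/FLX minus Fasted. Leaving out Fed replicate 3, Fed replicate 4 or Fed/FLX replicate 1 alone ended the call for Fed/FLX against Fed (adjusted p of 0.0720, 0.0581 and 0.0589). Leaving out Fasted replicate 1 or Fasted/FLX replicate 3 or 4 ended that for Fasted/FLX against Fasted (0.0627, 0.0559 and 0.0545). Without quantile normalization neither passed (-0.54 with adjusted p = 0.268 and -0.52 with adjusted p = 0.260). With the offset of 50 the called differences of dre-miR-19c shrank to -0.14 in Fed/FLX against Fed, -0.20 in Fasted/FLX against Fasted and -0.25 in Fed/FLX against Fasted, and all 3 still passed.

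Fasting alone went with a higher dre-miR-19c on 3 of 4 arrays, which lay above all Fed arrays, but the difference of 0.37 (SE 0.15) had an adjusted p of 0.376. Fed and Fasted arrays of the same replicate number deviated together weakly (correlations of 0.113 to 0.265 over all miRNAs). They also shared slide and slide column, and no label pairs the samples. Between these arrays of the same number dre-miR-19c was higher in Fasted in 4 of 4 pairs, by 0.15 to 0.82. So was dre-miR-19d, by 0.02 to 0.19, while dre-miR-19a-3p and dre-miR-19b-3p were each higher in 1 of 4. With the replicate number as a block the adjusted p of dre-miR-19c was 0.385. No miRNA of the 248 passed between Fasted and Fed by limma (0%), while 29 had an unadjusted p under 0.05. Fasted/FLX was below Fed in dre-miR-19c by -0.33 (SE 0.15, adjusted p = 0.296). That value passed the threshold when arrays were scaled to a common 75th percentile of the detected miRNA spots, a scaling that lowered the median of all miRNAs in this comparison to -0.50.

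Dre-miR-19d, the other weak member, passed no test. It read from 4.20 to 4.50 in Fed, 3.97 to 4.50 in Fed/FLX, 4.22 to 4.63 in Fasted and 4.13 to 4.30 in Fasted/FLX. All 4 groups overlapped. Fed/FLX differed from Fed by -0.08 (SE 0.12, adjusted p = 0.798) and Fasted/FLX from Fasted by -0.23 (SE 0.12, adjusted p = 0.340). Its brighter probe had at least 50% of spots well above background on 11 of the 16 arrays and its dimmer probe on 0.

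Counted over the family, 2 of 6 members passed in Fed/FLX against Fed, where 12.9% of all miRNAs passed. In Fasted/FLX against Fasted 1 of 6 passed (6.45% of all miRNAs), and in Fed/FLX against Fasted 1 of 6 (7.26% of all). In the remaining comparisons 0 of 6 passed (4.84% of all miRNAs in Fasted/FLX against Fed and 1.61% in each of Fasted/FLX against Fed/FLX and the interaction). The median log2 difference of the 6 members in Fed/FLX against Fed was -0.14, beside 0.01 over all 248 miRNAs. In Fasted/FLX against Fasted it was 0.003 beside -0.004. Both family medians include dre-miR-19a-5p and dre-miR-19b-5p, which hold no measurable level. The 4 measurable members ran from -0.93 to -0.08 in Fed/FLX against Fed and from -0.70 to 0.11 in Fasted/FLX against Fasted. Fed/FLX against Fed and Fed/FLX against Fasted share the Fed/FLX arrays, and the last shares the Fasted arrays with Fasted/FLX against Fasted. Among the 49 miRNAs detected on all arrays 32.7% passed in Fed/FLX against Fed, compared with 16.9% of the 59 detected on some arrays and 4.29% of the 140 detected on none.

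Whether members differed from each other in their response was tested on the difference of their RMA values on each array, over 6 pairs of members and 2 comparisons, by exact two-sided permutation of the arrays. No pair passed after adjustment over the 12 tests, in which the smallest adjusted p that occurred was 0.114. The smallest exact p that 4 arrays against 4 allow is 0.0286, so that a pair could pass this adjustment only if most pairs sat at that value, and the tests cannot show that members respond alike. In Fed/FLX against Fed, dre-miR-19a-3p moved by -0.72 relative to dre-miR-19b-3p (exact p = 0.0571, 3 of 4 Fed/FLX arrays outside the Fed range). Dre-miR-19b-3p minus dre-miR-19c moved there by 0.39 (exact p = 0.0286, 4 of 4 arrays). In the fasted state dre-miR-19c moved below dre-miR-19b-3p by 0.78 (dre-miR-19b-3p minus dre-miR-19c, exact p = 0.0286, 4 of 4 arrays) and below dre-miR-19a-3p by 0.81 (dre-miR-19a-3p minus dre-miR-19c, exact p = 0.0857), and dre-miR-19b-3p minus dre-miR-19d moved by 0.31 (exact p = 0.0286, 4 of 4 arrays).

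The members come from 3 places in the genome, as the order of genes in the RefSeq annotation of assembly GRCz12tu shows. The genes of miR-19a and miR-19b lie in 1 run with mir17a-1, mir18a, mir20a and mir92a-1. The miR-19c gene lies with mir18c, mir20b and mir363. The miR-19d gene lies between mir93 and mir25. Mature dre-miR-17a-5p and dre-miR-92a can also come from a second copy of their genes outside these runs.

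Of the neighbours of miR-19a and miR-19b, 1 passed in Fed/FLX against Fed, and in the direction opposite to dre-miR-19a-3p. In this comparison 12.9% of all miRNAs passed, and 32.7% of those detected on all 16 arrays. Dre-miR-92a, whose family is known for its role in vessel growth, was higher in Fed/FLX than in Fed by 0.42 (SE 0.09, adjusted p = 0.00955). Its Fed arrays read 7.85, 7.83, 7.76 and 7.84 and its Fed/FLX arrays 8.43, 8.06, 8.11 and 8.34, with no overlap. Without the 3 arrays of lowest signal the difference was 0.25 (adjusted p = 0.159), which ends this call as well, and it was lost in 7 of 17 settings in all. Dre-miR-17a-5p differed by 0.23 (SE 0.09, adjusted p = 0.109) and dre-miR-20a-5p by 0.12 (SE 0.11, adjusted p = 0.599), both of which share the proliferation-linked miR-17 seed. Dre-miR-18a was detected on 0 arrays.

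**Figure D4:**
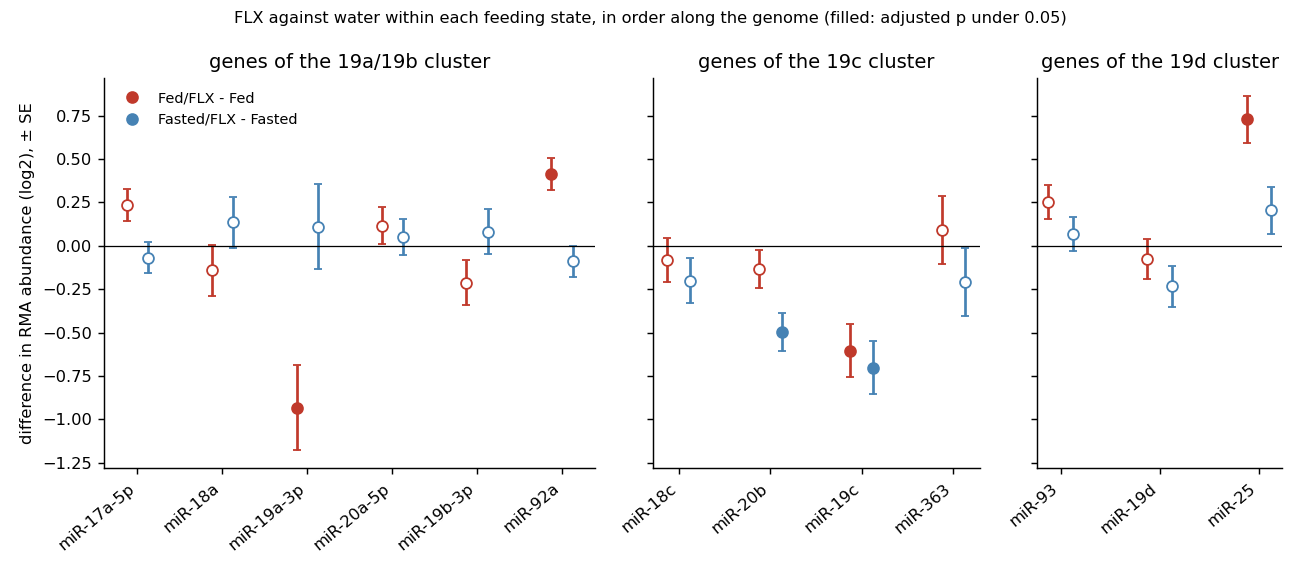
Log2 difference ± SE of FLX against water in fed and in fasted fish for the miRNAs of the 3 gene runs that hold miR-19a and miR-19b, miR-19c, and miR-19d, in order along the genome, with filled points where the adjusted p was under 0.05. In the first run dre-miR-19a-3p (-0.93) and dre-miR-92a (0.42) lie on opposite sides of 0 in fed fish, and in the second dre-miR-20b (-0.50) and dre-miR-19c (-0.70) both lie below 0 in fasted fish.

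Dre-miR-20b, the neighbour of miR-19c and a relative of miR-17, was lower in Fasted/FLX than in Fasted by 0.50 on the log2 scale (-0.50, SE 0.11, adjusted p = 0.0172). Its Fasted arrays read 6.50, 6.27, 6.23 and 6.54 and its Fasted/FLX arrays 5.71, 6.08, 5.98 and 5.78, with no overlap. The call was lost without quantile normalization (-0.26, adjusted p = 0.461), and when Fasted replicate 1, Fasted/FLX replicate 1 or Fasted/FLX replicate 4 was left out (adjusted p of 0.0627, 0.0646 and 0.0545). Against Fasted it was also lower in Fed/FLX (-0.48, SE 0.11, adjusted p = 0.0143), but with adjusted p = 0.0791 without the low-signal arrays. That result did not stay the same in 5 of 17 other settings. Between Fed/FLX and Fed it differed by -0.13 (SE 0.11, adjusted p = 0.534), where dre-miR-19c passed. The remaining neighbours, dre-miR-18c and dre-miR-363, were detected on 2 and 6 arrays and passed no test.

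Beside miR-19d, dre-miR-25 rose in Fed/FLX against Fed by 0.73 (SE 0.13, adjusted p = 0.00674), and it is named here after its values were seen. Its Fed arrays lay between 5.98 and 6.09 and its Fed/FLX arrays between 6.41 and 7.24. Without the low-signal arrays the difference was 0.50 (adjusted p = 0.0292). The result did not stay the same in 2 of 17 other settings (adjusted p up to 0.0505). Dre-miR-93, another miR-17 relative detected on 7 arrays, was higher in Fasted/FLX than in Fed by 0.41 (SE 0.10, adjusted p = 0.0271). Its call was lost in 6 of 16 other settings (adjusted p up to 0.220) and in 5 of 8 fits that left out 1 array of the 2 groups, those without Fed replicate 1 or 2 or Fasted/FLX replicate 2, 3 or 4 (adjusted p up to 0.0880).

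The list of miR-17-92 relatives outside the miR-19 family held 13 miRNAs of the names miR-17, miR-18, miR-20, miR-92, miR-93 and miR-363, of which every array detected 4 and no array detected another 5. In Fed/FLX against Fed 1 of 13 was higher, where 8.87% of all miRNAs were, and 0 lower, where 4.03% were, and the median difference was 0.06 beside 0.01 over all miRNAs. In Fasted/FLX against Fasted 1 was lower, where 3.63% of all were (median 0.003 beside -0.004). In Fed/FLX against Fasted 1 was lower, where 3.23% of all were (median -0.09 beside 0.01). Against Fed, 1 was higher in Fasted/FLX, where 4.03% of all were (median 0.16 beside 0.01). A single call among 13 is near these shares. The list had 0 other calls in any comparison. Its named calls are those of dre-miR-92a, dre-miR-20b and dre-miR-93 given above.

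Among the 49 miRNAs detected on every array, the one whose RMA values followed dre-miR-19a-3p most closely was dre-miR-205, a miRNA of epithelial cells, with Pearson's r = 0.86 over the 16 arrays. It was followed by dre-miR-19b-3p (0.81), dre-miR-30e-5p (0.79), the hepatocyte miRNA dre-miR-192 (0.75) and dre-miR-101a (0.56), while the median over the other 48 was -0.13. With group means taken out, dre-miR-205 (0.87), dre-miR-19b-3p (0.78) and dre-miR-30e-5p (0.65) again led, and dre-miR-17a-5p (0.59) and dre-miR-20a-5p (0.58) came next. These values describe 16 arrays that share the normalization, and the 2 low-signal Fed/FLX arrays lay lowest in both dre-miR-19a-3p and dre-miR-205.

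**Figure D5:**
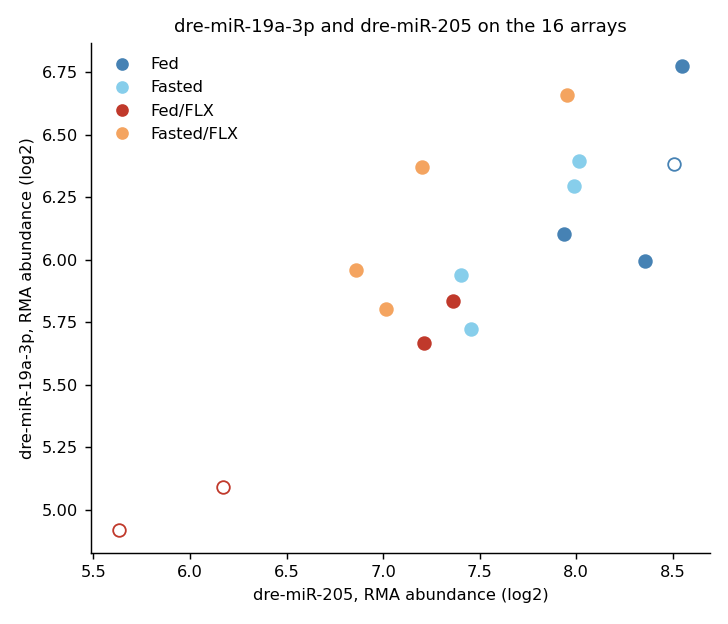
RMA abundance (log2) of dre-miR-19a-3p against that of dre-miR-205 on the 16 arrays, coloured by group, with open circles for the 3 arrays of lowest signal. The 2 open Fed/FLX arrays lie apart at the lower left, and over all 16 arrays r was 0.86.

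Dre-miR-205 read 8.34 ± 0.28 in Fed, 6.59 ± 0.83 in Fed/FLX, 7.72 ± 0.33 in Fasted and 7.26 ± 0.48 in Fasted/FLX (SD, n = 4). It was lower in Fed/FLX than in Fed by a log2 difference of -1.74 (SE 0.34, adjusted p = 0.00759), and at -0.98 (adjusted p = 0.116) without the low-signal arrays. The whole list of epithelial markers had 10 miRNAs on the array. In Fed/FLX against Fed 1 of them, dre-miR-205 itself, was lower and 0 were higher, where 4.03% and 8.87% of all miRNAs were. The median difference of the list was -0.11. Their summed level (log2) was 7.65 to 8.36 in Fed/FLX, 8.66 to 9.06 in Fed, 8.19 to 8.67 in Fasted and 8.11 to 8.78 in Fasted/FLX. That sum adds signals on the linear scale, so that dre-miR-205 weighs heavily in it and it is not separate from the dre-miR-205 result. Of these markers dre-miR-141, dre-miR-203a, dre-miR-203b-5p and dre-miR-429b were detected on no array. In a pooled liver, fewer cells of a type and less of a miRNA per cell cannot be told apart, and the part of epithelial cells in the lower dre-miR-19a-3p was not tested.

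Of 6 hepatocyte markers, 1 was lower in Fed/FLX than in Fed and 0 were higher, where 4.03% and 8.87% of all miRNAs were. The lower marker was dre-miR-192 (-0.49, SE 0.14, adjusted p = 0.0382, and -0.21 with adjusted p = 0.338 without the low-signal arrays). The summed level of the hepatocyte markers was 12.2 to 12.8 in Fed/FLX and 12.6 to 12.7 in Fed. Dre-miR-430a, from the list for oocyte and early embryo, also passed in Fed/FLX against Fed at -0.54 (adjusted p = 0.00759) while detected on 0 arrays. A miRNA with no detected signal thus passed this test. No marker of blood cells, endothelium, mesenchyme, pancreas or muscle passed in Fed/FLX against Fed or in Fasted/FLX against Fasted.

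The miRNAs that followed dre-miR-19c most closely over the 16 arrays were dre-miR-30b (r = 0.88), dre-miR-26a (0.86), the hepatocyte miRNA dre-miR-194a (0.80), its neighbour dre-miR-20b (0.79) and dre-miR-192 (0.63). With group means taken out, dre-miR-29a (0.64), dre-miR-21 (0.60), dre-miR-30b (0.53), dre-miR-130c (0.45) and dre-miR-20b (0.44) led. Within the family dre-miR-19c had r = 0.51 with dre-miR-19a-3p and 0.31 with dre-miR-19b-3p. For dre-miR-19b-3p the closest was dre-miR-19a-3p itself, then dre-miR-101a (0.73) and dre-miR-30e-5p (0.69). Dre-miR-19d followed dre-miR-23b most closely (0.65).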

How the data were processed

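Liver RNA of 16 samples was hybridized to one-colour (Cy3) custom Agilent arrays. The authors deposited the spot intensity of each array from Agilent Feature Extraction 11.0.1.1, with local background subtracted and no scaling between arrays. A second file that the authors deposited holds log2 total gene signals, less 1 constant per column, of 166 miRNAs, and 14 of 16 columns hold a scan filed under another sample (matched within 0.001), 12 of them of another group. Which of both assignments is right was not settled, and scans were used as filed. It holds 3 of the 6 members and served only as an alternative setting.

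The study's methods name the RMA algorithm, and its settings are not given in the sources used here. The steps were therefore chosen here. They were a background model over all spots, applied to the background-subtracted signal, and removal of control and outlier spots. Quantile normalization, log2 and median polish (at most 20 iterations) followed. Groups were compared with limma 3.58.1 on R 4.3.3 (lmFit and eBayes, 1 mean per group, Benjamini-Hochberg adjustment over 248 miRNAs within each comparison, threshold 0.05), and single values by exact permutation with scipy 1.17.1. Nothing was filtered for low signal. The scripts were tested on simulated data, in which sizes were underestimated. A set log2 size of 1 was found at a median of 0.71 for bright and 0.66 for dim miRNAs. A set size of 2 was found at 1.76 and 1.47. Of 6 dim miRNAs set at 1, 5 were called, and 2 of 228 unchanged miRNAs were called. The simulated arrays had a smaller spread within groups than dre-miR-19a-3p showed here (SD 0.31 to 0.44), and none was set to be dimmer. These counts therefore do not give the power or the rate of false calls in the real arrays. The number of arrays limits the precision. Within groups, arrays correlated at 0.977 to 0.994 and no array was a copy of another.

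The members and lists were chosen with earlier results of these data known. The miRNAs named are the members, the relatives of miR-17-92 past the threshold, the 5 miRNAs most like each measurable member, cell type markers, and the neighbours of the members' genes. Fed and Fasted arrays of the same replicate number had 4 of 4 correlations of deviations from group means over 0.1 (0.113 to 0.265). No other 2 groups had this. The correlations are weak, these arrays also share slide and slide column, and no label pairs the samples. Mature and probe sequences were not used here.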

Additional observations from a re-analysis of the deposited data

How the results depend on the processing

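The 4 differences called among the members all fell short of the 2-fold minimum (-0.93 for dre-miR-19a-3p in Fed/FLX against Fed, and -0.60, -0.70 and -0.97 for dre-miR-19c in Fed/FLX against Fed, Fasted/FLX against Fasted and Fed/FLX against Fasted), which left 0 members in each comparison. For dre-miR-19c, whose signal was close to background, the size depended on the processing (from -2.95 to -0.14 in Fed/FLX against Fed). For dre-miR-19a-3p in the same comparison it ran from -1.09 to -0.49 over the settings other than the authors' table. The place of both below this minimum thus depends on the processing. For dre-miR-19a-3p in Fed/FLX against Fed the call was lost without a background model (-1.07, adjusted p = 0.0507), without quantile normalization (-0.77, 0.223), on total gene signals (-1.09, 0.102), with only the 2 groups in the fit (-0.93, 0.0839) and without the 3 arrays of lowest signal (-0.54, 0.337). The call was also lost by the methods' test, in which the ANOVA over the 4 groups had a Benjamini-Hochberg adjusted p of 0.118. That p covers all 4 groups and does not measure this 1 difference. For dre-miR-19c in the same comparison it was lost without quantile normalization (-0.54, 0.268), on total gene signals (-2.95, 0.146, where arrays with no detection mark sit at the floor), with only the 2 groups in the fit (-0.60, 0.0904) and without the 3 arrays (-0.37, 0.191). In Fasted/FLX against Fasted dre-miR-19c lost its call without a background model (-1.09, 0.0977), without quantile normalization (-0.52, 0.260) and on total gene signals (-1.41, adjusted p = 1), and in Fed/FLX against Fasted on total gene signals (-3.57, 0.128). The cause was not tested.

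The number of members called in Fed/FLX against Fed was 0 without quantile normalization (6 of 248 miRNAs passed) and on total gene signals (6 of 248). It was also 0 in the authors' table (0 of 166), with only 2 groups (2 of 248) and without the 3 arrays (10 of 248). By the main processing 32 of 248 miRNAs passed, so that calls were fewer over all miRNAs too. The number of members called was 1 without a background model, where 16 of 248 miRNAs passed. It was also 1 by the methods' adjusted test, for which the share of all miRNAs is not given here. Among miRNAs with 4 of 4 arrays of some group detected it was 1, where dre-miR-19c was not tested and 28 of 79 passed. In Fasted/FLX against Fasted it was 0 without a background model (9 of 248 miRNAs passed), without quantile normalization (8 of 248) and on total gene signals (6 of 248). It was also 0 there in the authors' table (0 of 166) and among detected miRNAs (13 of 79). In Fed/FLX against Fasted it was 0 on total gene signals (7 of 248), in the authors' table (0 of 166) and among detected miRNAs (15 of 79). At the 75th percentile of all spots it was 2, where 13 of 248 miRNAs passed. In Fasted/FLX against Fed it was 1 without quantile normalization, where 46 of 248 miRNAs passed. It was 4 at the 75th percentile of detected spots and 3 at that of all spots, where 141 and 132 of 248 miRNAs passed. Both of these counts include dre-miR-19a-5p and dre-miR-19b-5p. In Fasted/FLX against Fed/FLX it was 2 without quantile normalization, where 34 of 248 miRNAs passed. It was 1 by the methods' unadjusted test, for which the share of all miRNAs is not given here. In Fasted against Fed it was 2 at the 75th percentile of detected spots and 2 in the authors' table, and in the interaction 2 in that table, each time dre-miR-19a-5p and dre-miR-19b-5p, where 78 of 248, 130 of 166 and 134 of 166 miRNAs passed. The total gene signal of both features was the not-detected value on every array, so their differences in that table are those of the constants subtracted per column. The 75th percentile of detected spots moved the median of all miRNAs to -0.20 in Fed/FLX against Fed, -0.39 in Fasted against Fed and -0.50 in Fasted/FLX against Fed.

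The sign turned in several values. Without quantile normalization dre-miR-19a-3p was 0.15 in Fasted against Fed and 0.45 in Fasted/FLX against Fed, dre-miR-19c was 0.000738 in Fasted/FLX against Fed and 0.022 in the interaction, and dre-miR-19d was 0.052 in Fasted/FLX against Fasted. The interaction of dre-miR-19c was 0.12 without a background model and 1.54 on total gene signals, on which dre-miR-19a-3p was -0.13 in Fasted/FLX against Fasted. By the headings of the authors' table, which assign 14 of 16 scans to another sample, dre-miR-19a-3p was 0.57 in Fasted against Fed, 0.37 in Fed/FLX against Fed, 0.15 in Fasted/FLX against Fed, -0.42 in Fasted/FLX against Fasted, -0.22 in Fasted/FLX against Fed/FLX and -0.79 in the interaction, and dre-miR-25 was -0.063 in Fed/FLX against Fed. Of these, dre-miR-19a-3p and dre-miR-25 in Fed/FLX against Fed had passed by the assignment of the scans, and the other values had not. The authors' table also differs in its measure, total gene signals less 1 constant per column, and the median of its miRNAs was -0.41 in Fed/FLX against Fed. In every column the median was also the lowest value, so that this -0.41 is a difference of the constants. Dre-miR-25 at -0.063 lay above it, so the sign of dre-miR-25 turned only with the constants left in.

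An offset of 50 on the background-corrected signal kept the 4 calls but shrank dre-miR-19a-3p to -0.49 and dre-miR-19c to -0.14, -0.20 and -0.25. With each array left out, the called differences ran from -1.09 to -0.78 for dre-miR-19a-3p, and for dre-miR-19c from -0.71 to -0.48, -0.79 to -0.63 and -1.08 to -0.85 in the order above. The numbers of members called were 0 to 2 in Fed/FLX against Fed, where 12 to 39 of 248 miRNAs passed. They were 0 to 1 in Fasted/FLX against Fasted (2 to 15 of 248) and 1 in Fed/FLX against Fasted (8 to 28 of 248). In the other comparisons they were 0. Signs turned within -0.27 to 0.036 for dre-miR-19a-3p in Fasted/FLX against Fed, -0.046 to 0.24 in Fasted/FLX against Fasted, -0.22 to 0.015 for the interaction of dre-miR-19c, -0.0086 to 0.16 for dre-miR-19b-3p in Fasted/FLX against Fasted and -0.17 to 0.016 for dre-miR-19d in Fed/FLX against Fed. With the replicate block no member's call changed, and dre-miR-19a-3p in Fed/FLX against Fed stayed at -0.93 (adjusted p = 0.0430). Signal over background limits dre-miR-19c and dre-miR-19d and leaves dre-miR-19a-5p and dre-miR-19b-5p with no measured level, and group, tank and slide column cannot be separated for FLX.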
